A study of Mus musculus with 6 samples.

Results

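This account follows the genes that carry the earliest steps of T cell receptor signalling, in CD4+ T cells taken from mice with experimental autoimmune encephalomyelitis (EAE), an inflammatory disease of the central nervous system. A fixed list of 41 genes was used, and 40 of them had at least 1 probe set that names no other gene, among 18194 genes measured in that way. Lck, the kinase that starts the cascade, had no such probe set and is not analysed here. Where a gene had several probe sets, the one with the highest mean log2 intensity over all arrays was kept.

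The cells are described by their labels as CD4+ T cells of memory phenotype from female C57BL/6 mice aged 8 to 10 weeks. In all of these mice EAE had been induced with the peptide MOG35-55 and was acute and clinical. Of 6 arrays, 3 hold cells from the spinal cord, the inflamed tissue, and 3 hold cells from the draining inguinal lymph node. All animals carried the disease, so the comparison sets one tissue against another and has no healthy group. How many animals stand behind an array, and by which surface markers the memory phenotype was gated, was not given in the labels.

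The T cell receptor has no enzyme of its own. Its CD3 and zeta chains carry tyrosine motifs that Src family kinases phosphorylate, and the kinase Zap70 binds there and phosphorylates the scaffolds Lat and Lcp2. The scaffolds gather phospholipase C gamma, exchange factors for Ras and Rac, and further adaptors, from which calcium, NFAT, MAP kinase and NF-kB signals follow. Phosphatases, the kinase Csk, ubiquitin ligases and the diacylglycerol kinases hold the cascade back.

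The labelled cell type was checked against its defining markers. Cd3e, Cd4 and Cd44 were bright on every array, while Cd8a read 121 to 225 and Cd8b1 116 to 134. Other markers differed between the tissues. The summed intensity of 17 macrophage, monocyte and microglia genes was 1516 to 5832 in spinal cord against 803 to 902 in lymph node, and all 17 had positive changes. Of these, 0 were called by limma with tissue alone and 8 were called higher with the replicate block described below. Among their defining markers, C1qb read 42 to 176 in spinal cord against 12 to 14 in lymph node. Some of the 17 read near the low end of the array, such as Itgam at 22 to 27 and Mrc1 at 18 to 25. The 20th percentile of all values was 25. Cd68 and Aif1 overlapped between the tissues. Summed over 8 neutrophil genes the intensity was 426 to 2157 against 319 to 451. The sum of 9 B cell genes was 1502 to 2069 in spinal cord against 5932 to 9147 in lymph node, most of it Ighm. Ighm and Cd22 were called lower. Cd79b, at 29 to 43 in spinal cord against 57 to 117, was called lower only with the block. Cd79a and Ms4a1 read 27 to 63 on every array. The sum of 6 dendritic cell genes was 592 to 685 against 386 to 447, with Itgax called higher. Itgax alone read 229 to 315 against 79 to 97. The other 5 changed by 0.04 to 0.21 on the log2 scale and were called in neither fit. The sum of 4 natural killer cell genes was 1945 to 2944 against 610 to 1888, with Klrd1 called higher. Eomes, another of these 4, went the other way, at 52 to 306 in spinal cord against 113 to 1185, and was called lower with the block. Ncr1 and Klra8 read 12 to 64 on every array. Of the glial and neuronal genes Mbp read 3397 to 6110 in both tissues and Mog 13 to 16. The part of these cells in the values below was not tested, and in such bulk samples fewer cells of a type and less RNA per cell cannot be told apart.

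Across the 40 genes no difference between the tissues passed the test with tissue as the only term. By limma with Benjamini-Hochberg adjustment over all genes, 0 of 40 were higher and 0 lower at an adjusted p below 0.05, against 1.13% of all genes called higher and 1.41% called lower. Without adjustment 6 of 40, or 15%, had a p below 0.05 (1 higher, 5 lower), near the 14.3% of all genes. The same 6 were the genes whose 3 spinal cord values did not overlap with the 3 lymph node values. They were Sh2d2a, which was higher, and Cd247, Prkcq, Nck1, Sos1 and Pag1, whose probe sets used here read lower (another of Nck1 read higher), beside 8.81% of all genes that did not overlap and were higher and 9.67% that were lower.

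The arrays are numbered 1 to 3 in each tissue, and arrays of the same number tended to deviate from their tissue means in the same direction. Among the members r was 0.707, 0.379 and 0.889 for numbers 1, 2 and 3. With that number as a block, so that spinal cord array 1 is set against lymph node array 1 and so on, 1 gene was called higher (Sh2d2a) and 7 lower (Sos1, Dgka, Prkcq, Dgkz, Cbl, Csk and Trat1). With that fit 3.67% of all genes were higher and 7.44% lower, beside 2.5% and 17.5% of the members. Among genes above the 80th percentile of mean intensity 5.19% were higher and 9.59% lower, beside 2.63% and 15.8% of the 38 members there. Below, a value with the block is limma's adjusted p over all genes in that fit. These calls need all 6 arrays: when both arrays of number 1, 2 or 3 were left out, 0 of 40 were called. At an unadjusted p below 0.05 the blocked fits then gave 13, 12 and 8 members. Over all 18194 genes, the fit without number 1 still called 152 higher and 177 lower by limma, with 5015 at an unadjusted p below 0.05. Without both arrays of number 2, or of number 3, those fits called 0 of 18194 genes by limma, with 2984 and 2591 at an unadjusted p below 0.05.

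Most of the 40 genes read slightly lower in spinal cord, as bright probe sets did in general. Of the 40, 30 had negative changes, with a median of -0.15 on the log2 scale against 0.00 over all genes. However, 38 of the 40 lay above the 80th percentile of mean intensity, and of the 3639 genes above it only 29.8% had positive changes, with a median of -0.18. Quantile normalization of the deposited values left 18 positive and 22 negative, with a median of -0.04 among the members and 42.3% positive among genes as bright. Genes as bright as the members leaned the same way.

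**Figure D1:**
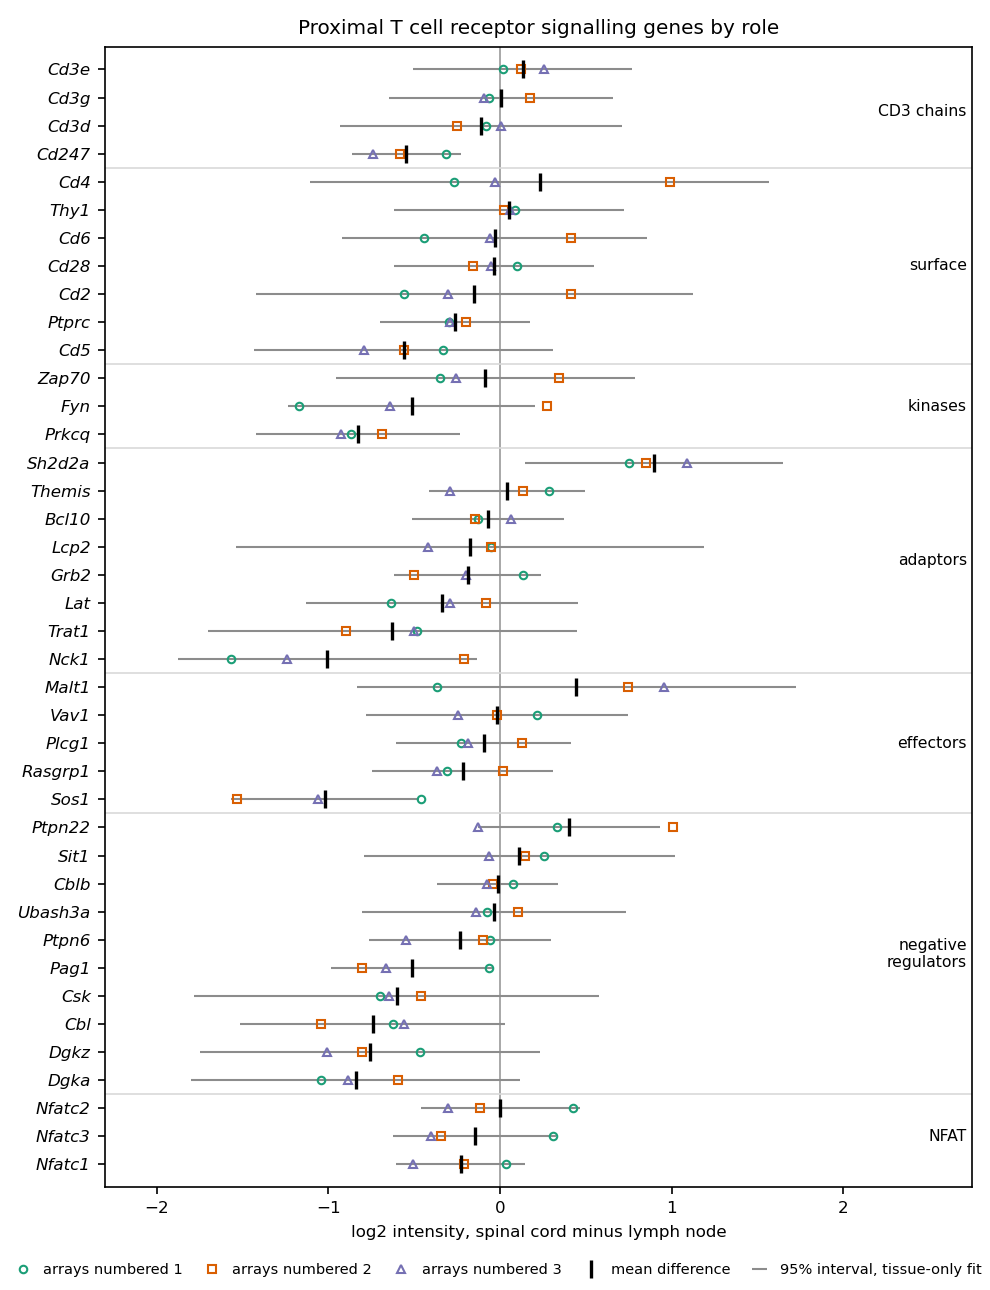
Difference in log2 intensity (spinal cord minus lymph node, horizontal axis) for the 40 genes, grouped by role. Open symbols are the differences between arrays of the same number, black ticks their mean, and grey lines the unadjusted 95% interval of the fit with tissue alone (n = 3 arrays per tissue). Sh2d2a lies to the right and Prkcq, Trat1, Nck1, Sos1, Csk, Cbl, Dgkz and Dgka lie to the left in all 3 pairs, Nck1 on the probe set used here but not on another.

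The CD3 chains of the receptor differed by less than the spread between arrays, and the zeta chain was lower in spinal cord without being called. Cd3e, one of the chains of the receptor's signalling module, read 2153, 1358 and 1679 on the spinal cord arrays, in the order of their numbers 1, 2 and 3, against 2124, 1248 and 1405 on those of the lymph node. Its log2 change was 0.13 ± 0.26 (SE; 95% interval -0.50 to 0.77; adjusted p = 0.885 by limma). The values overlapped, and array 1 was the brightest in both tissues.

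Cd3g read 6084, 6451 and 9316 in spinal cord against 6359, 5722 and 9945 in lymph node, with a log2 change of 0.00 ± 0.27 (interval -0.65 to 0.66). Cd3d read 4592, 3911 and 8011 against 4869, 4646 and 7972 (-0.11 ± 0.34, interval -0.93 to 0.71). In both genes array 3 was the highest in each tissue, and the tissues overlapped. Cd3g, Cd3d and Cd3e lie near one another on chromosome 9 in the RefSeq table of GRCm38.p6.

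Cd247 encodes the zeta chain, which holds more of the receptor's tyrosine motifs than the other chains do. It read 4085, 3345 and 3339 in spinal cord against 5083, 5005 and 5585 in lymph node. All 3 spinal cord values lay below all 3 lymph node values, by 1.24-fold, 1.50-fold and 1.67-fold within the numbered pairs. The log2 change was -0.55 ± 0.13 (11.80 ± 0.17 against 12.35 ± 0.09, mean ± SD, n = 3), with an adjusted p of 0.113 by limma and 0.0537 with the block. Its other 3 probe sets were dimmer, at 26 to 315, and their changes were -0.01, 0.08 and 0.15.

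**Figure D2:**
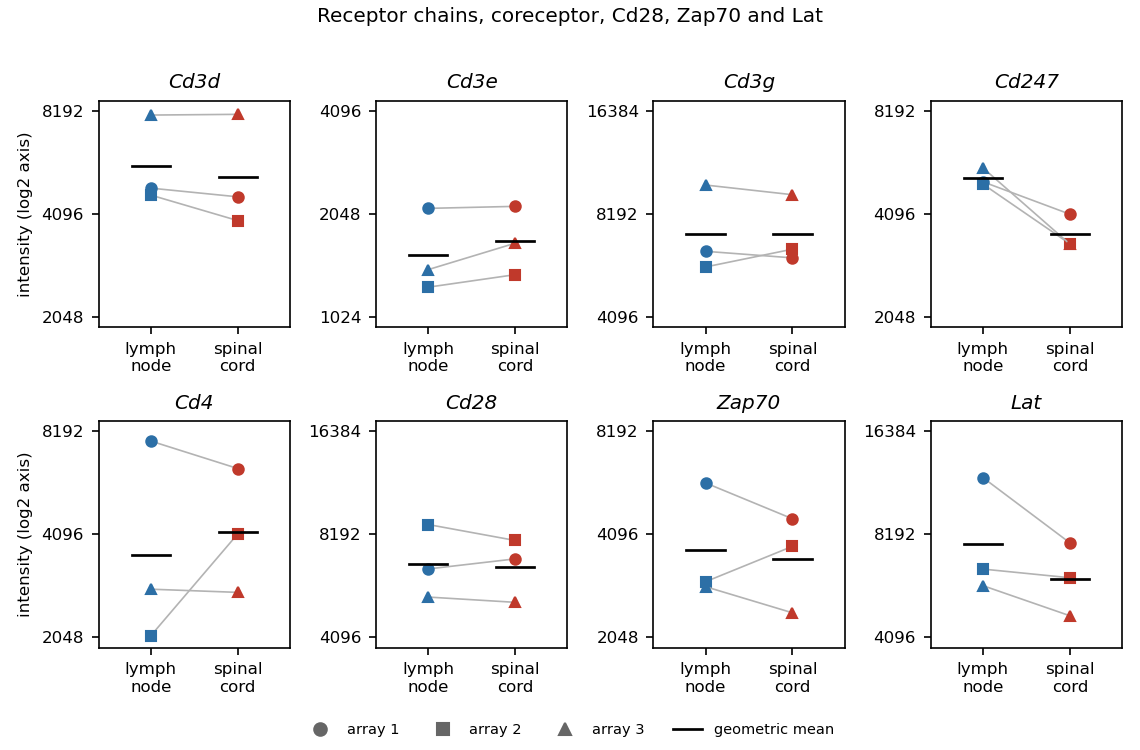
Intensity (vertical axis, log2 spaced) in each lymph node and spinal cord array for Cd3d, Cd3e, Cd3g, Cd247, Cd4, Cd28, Zap70 and Lat. Circles, squares and triangles are arrays 1, 2 and 3, grey lines join arrays of the same number and black bars are geometric means (n = 3). Cd247 is the only one of the 8 whose tissues do not overlap.

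Among 7 coreceptor and accessory surface genes none was called in either fit. Cd4, the coreceptor that binds MHC class II and brings Lck to the receptor, read 6371, 4101 and 2763 in spinal cord against 7669, 2063 and 2823 in lymph node. The change of 0.23 ± 0.55 has an interval from -1.11 to 1.57, and the pairs disagree: number 2 was 1.99-fold higher in spinal cord and numbers 1 and 3 were lower. The costimulatory receptor gene Cd28 read 5167 to 7844 against 5354 to 8734 (-0.04 ± 0.24), and Thy1, a membrane protein of T cells, 7607 to 13020 against 7317 to 12280 (0.05 ± 0.28).

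Cd5, a receptor that dampens T cell receptor signals, read 8026, 5384 and 3379 in spinal cord against 10105, 7933 and 5846 in lymph node. It was lower in spinal cord in all 3 pairs, by 1.26-fold, 1.47-fold and 1.73-fold, although the tissues overlapped. The log2 change was -0.56 ± 0.36 (adjusted p = 0.578; 0.0529 with the block). Its relative Cd6 had a change of -0.03 ± 0.37, and the adhesion receptor gene Cd2 of -0.15 ± 0.52, with pairs going both ways in each.

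Ptprc encodes CD45, the phosphatase that keeps Src family kinases active. It read 16859, 21313 and 15152 in spinal cord against 20758, 24501 and 18516 in lymph node, a change of -0.26 ± 0.18 (adjusted p = 0.606; 0.192 with the block). A second, dimmer probe set of Ptprc differed more, at 455, 778 and 866 against 1141, 1721 and 3082, with a change of -1.43 ± 0.42 and an adjusted p over probe sets of 0.250 (0.0160 with the block). Which transcripts the second probe set detects was not tested.

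Of the kinases, Prkcq was lower in every pair, Fyn was lower in 2 of 3 pairs and Zap70 differed by less than the spread between arrays. Prkcq encodes protein kinase C theta, which passes the receptor signal on towards NF-kB. It read 5101, 4777 and 3195 in spinal cord against 9319, 7696 and 6074 in lymph node, so the tissues did not overlap. The pairs differed by 1.83-fold, 1.61-fold and 1.90-fold, and the log2 change was -0.83 ± 0.24 (12.06 ± 0.37 against 12.89 ± 0.31, mean ± SD, n = 3). By limma the adjusted p was 0.186, and 0.0123 with the block.

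Zap70, which docks on the phosphorylated receptor chains, read 4539, 3769 and 2407 in spinal cord against 5782, 2969 and 2871 in lymph node. The change was -0.09 ± 0.36 (interval -0.96 to 0.78), and a second bright probe set gave -0.02. Fyn, a Src family kinase, read 3925, 5426 and 3500 against 8858, 4496 and 5469. Its change was -0.52 ± 0.30 (adjusted p = 0.531; 0.309 with the block), and its other probe set gave -0.51 ± 0.19. The pair of number 2 went against the rest on the brighter probe set, where spinal cord was 1.21-fold higher.

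Of the 8 adaptors, 1 was higher (Sh2d2a) and 1 lower (Trat1) with the block, and 0 were called with tissue alone. Sh2d2a, which encodes the T cell specific adaptor TSAd that binds Lck, was the 1 member higher in spinal cord with the block. It read 4040, 2566 and 2602 in spinal cord against 2396, 1421 and 1224 in lymph node. Each spinal cord value lay above each lymph node value, and the pairs differed by 1.69-fold, 1.81-fold and 2.13-fold. The log2 change was 0.90 ± 0.31 (11.55 ± 0.37 against 10.65 ± 0.51, mean ± SD, n = 3), with an adjusted p of 0.255 by limma and 0.0118 with the block. Only this probe set named Sh2d2a.

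Trat1 encodes a transmembrane adaptor that associates with the T cell receptor. It read 2243, 4156 and 4867 in spinal cord against 3132, 7745 and 6889 in lymph node. Array 1 was the dimmest in both tissues, and the pairs differed by 1.40-fold, 1.86-fold and 1.42-fold in one direction. The log2 change was -0.63 ± 0.44 (adjusted p = 0.626; 0.0402 with the block). After quantile normalization the blocked adjusted p was 0.0694. A second bright probe set of Trat1 read 1783 to 2470 in spinal cord against 3010 to 3777 in lymph node. Its log2 change was -0.69 ± 0.17 (adjusted p over probe sets 0.181, and 0.0282 with the block).

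Nck1, an adaptor that links the receptor to the actin cytoskeleton, read 346, 887 and 610 in spinal cord against 1025, 1028 and 1442 in lymph node. The change was -1.01 ± 0.36 (adjusted p = 0.274; 0.0729 with the block) and the tissues did not overlap. Another probe set of Nck1 went the opposite way, at 161, 253 and 319 against 114, 164 and 177 (0.66 ± 0.30; adjusted p over probe sets 0.484, and 0.0439 with the block). The direction of Nck1 thus depended on the probe set.

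The central scaffolds differed by less than the spread between arrays. Lat read 7720, 6099 and 4720 in spinal cord against 11992, 6467 and 5783 in lymph node (-0.34 ± 0.33, adjusted p = 0.739; 0.209 with the block). Lcp2, which encodes SLP-76, read 12564, 7530 and 3512 against 13054, 7810 and 4691 (-0.18 ± 0.56). Within each tissue Lcp2 ranged over 3.58-fold and 2.78-fold, wider than the 1.13-fold between tissues. Both genes were lower in spinal cord in all 3 pairs.

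Grb2, which brings Sos1 to Lat, had a change of -0.19 ± 0.18, Themis, a protein of developing and mature T cells, of 0.04 ± 0.19, and Bcl10, a link to NF-kB, of -0.07 ± 0.18. Their intervals ran from -0.62 to 0.24, from -0.41 to 0.49 and from -0.51 to 0.37. None of the 3 had the same sign in every pair.

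Among the 5 effectors Sos1 was lower, and the other 4 were not called in either fit. Sos1, an exchange factor that activates Ras, read 345, 263 and 345 in spinal cord against 475, 760 and 721 in lymph node. The tissues did not overlap, and the log2 change was -1.02 ± 0.22 (8.30 ± 0.23 against 9.32 ± 0.37, mean ± SD, n = 3). The adjusted p by limma was 0.0913, 0.0391 with the block and 0.0490 without lymph node array 1, where the change was -1.23. The pairs differed by 1.38-fold, 2.89-fold and 2.09-fold. A dimmer Sos1 probe set had a change of 0.23 ± 0.39, and averaging all probe sets of the gene ended the blocked call (adjusted p = 0.543).

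The other Ras exchange factor gene, Rasgrp1, had a change of -0.22 ± 0.22. Vav1, an exchange factor for Rac, stood at -0.02 ± 0.31, and Plcg1, the phospholipase that makes diacylglycerol and inositol trisphosphate, at -0.10 ± 0.21. Malt1, the protease of the complex that activates NF-kB, read 593, 1601 and 2436 in spinal cord against 766, 953 and 1256 in lymph node. The Malt1 change of 0.44 ± 0.52 has an interval from -0.83 to 1.72, with 4.11-fold between the lowest and the highest spinal cord array.

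Of 10 negative regulators, 4 were lower in spinal cord with the block and 0 were higher, where 7.44% of all genes, and 9.59% of those above the 80th percentile of mean intensity, were lower in that fit. All 4 calls were lost without both arrays of any 1 number. The role's median change was -0.37. That median was -0.27 after quantile normalization, with 6 of 10 negative rather than 8. The 4 were the diacylglycerol kinase genes Dgka and Dgkz, the ubiquitin ligase gene Cbl and Csk. The lean to lower values did not extend to the 19 further inhibitors measured in the wider pathway list below. Their median change was 0.15, with 12 positive and 7 negative. Among those 19, blocking by array number gave 2 calls upward and 3 downward. Whether the 2 sets of inhibitors differ was not tested. In the same arrays the summed macrophage genes were higher in spinal cord and the summed B cell genes lower, by the values given above, and their part was not tested.

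Dgka and Dgkz turn diacylglycerol into phosphatidic acid and so limit Ras and protein kinase C signals. Dgka read 6250, 5241 and 3008 in spinal cord against 12898, 7910 and 5565 in lymph node, a change of -0.84 ± 0.39 (adjusted p = 0.418; 0.0174 with the block). The pairs differed by 2.06-fold, 1.51-fold and 1.85-fold. The brightest spinal cord array lay above the dimmest lymph node array, so the difference shows within pairs and not between all arrays.

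Dgkz read 10898, 5299 and 4194 in spinal cord against 15083, 9247 and 8438 in lymph node. The pairs differed by 1.38-fold, 1.75-fold and 2.01-fold, with a change of -0.76 ± 0.41 (adjusted p = 0.494; 0.0285 with the block). A second probe set of Dgkz, at 145 to 1030 in spinal cord against 243 to 2369 in lymph node, gave -0.92 ± 1.03 (0.0274 over probe sets with the block). Both Dgkz probe sets were lower in all 3 pairs.

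Csk phosphorylates the inhibitory tyrosine of Lck and Fyn. It read 5963, 3357 and 2289 in spinal cord against 9675, 4617 and 3591 in lymph node, with array 1 the brightest of each tissue. The pairs differed by 1.62-fold, 1.38-fold and 1.57-fold, and the change was -0.60 ± 0.48, with a standard error of 0.11 once the array number was a block (adjusted p = 0.677; 0.0298 with the block). After quantile normalization the blocked adjusted p was 0.0567.

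Cbl, a ubiquitin ligase that marks activated kinases for breakdown, read 1278, 858 and 714 in spinal cord against 1973, 1766 and 1051 in lymph node. Its pairs differed by 1.54-fold, 2.06-fold and 1.47-fold (-0.74 ± 0.32, adjusted p = 0.373; 0.0290 with the block). Another probe set gave -1.05 ± 0.75 and a dim one -0.02 ± 0.30, neither called in either fit. With the probe set of the largest SD for each gene the blocked adjusted p of Cbl was 0.114. Cblb, the close relative of Cbl, read 1218 to 1603 against 1286 to 1519, with a change of -0.01 ± 0.14 and an interval from -0.37 to 0.34. Its other 2 probe sets gave -0.33 ± 0.37 and 0.86 ± 0.67, neither called in either fit.

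Pag1 anchors Csk at the membrane. It read 3979, 3422 and 2856 in spinal cord against 4160, 5977 and 4532 in lymph node (-0.51 ± 0.19, adjusted p = 0.310; 0.130 with the block). The tissues did not overlap, while a dim Pag1 probe set, at 102 to 133 against 73 to 75, gave 0.61 ± 0.13. The phosphatase gene Ptpn22 read 7713, 10679 and 7208 in spinal cord against 6138, 5310 and 7891 in lymph node (0.40 ± 0.22, adjusted p = 0.501). It was higher in 2 of 3 pairs.

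The remaining negative regulators showed small changes with overlapping tissues. Ptpn6, which encodes the phosphatase SHP-1, had a change of -0.24 ± 0.22, and Sit1, a transmembrane adaptor, of 0.11 ± 0.37. Ubash3a, a suppressor of receptor signalling, read 2648, 2379 and 1411 in spinal cord against 2787, 2212 and 1553 in lymph node (-0.04 ± 0.32). The interval for Ubash3a ran from -0.81 to 0.73, and a dimmer probe set of it gave -0.61 ± 0.37.

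**Figure D3:**
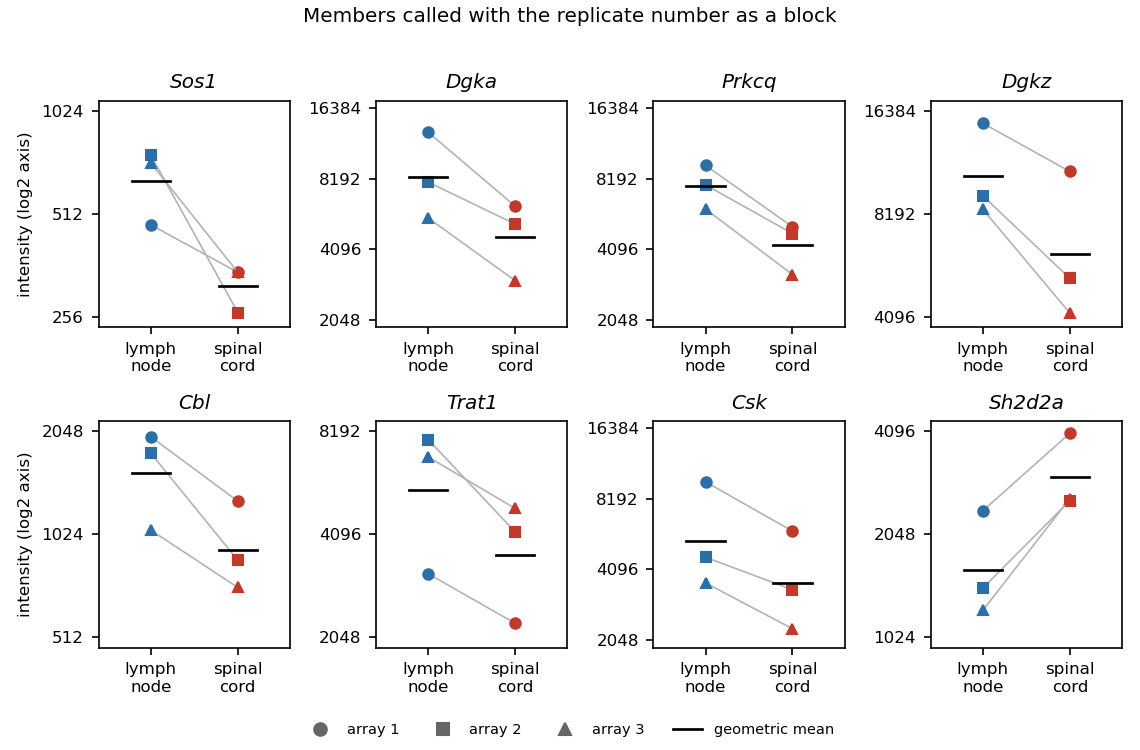
Intensity (vertical axis, log2 spaced) of the 8 genes called with the replicate number as a block, in each lymph node and spinal cord array. Circles, squares and triangles are arrays 1, 2 and 3, grey lines join arrays of the same number and black bars are geometric means (n = 3). All lines slope down from lymph node to spinal cord except those of Sh2d2a, which slope up.

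The NFAT genes encode transcription factors that enter the nucleus when calcium rises. Nfatc1 read 3292, 2684 and 2857 in spinal cord against 3215, 3109 and 4068 in lymph node (-0.23 ± 0.15, adjusted p = 0.602 by limma). Nfatc2 read 2605 to 4169 against 3110 to 3567 (0.00 ± 0.19) and Nfatc3 3381 to 5288 against 4277 to 5332 (-0.15 ± 0.20). None of the 3 was called in either fit. On the probe sets used, in each of the 3 the pair of number 1 was higher in spinal cord and the other 2 pairs were lower. Another Nfatc1 probe set, at 1051 to 2214 against 1805 to 3221, was lower in all 3 pairs (-0.56 ± 0.35). It was not called in either fit. Further Nfatc1 probe sets changed by -0.14, -0.05 and 0.15.

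**Figure D4:**
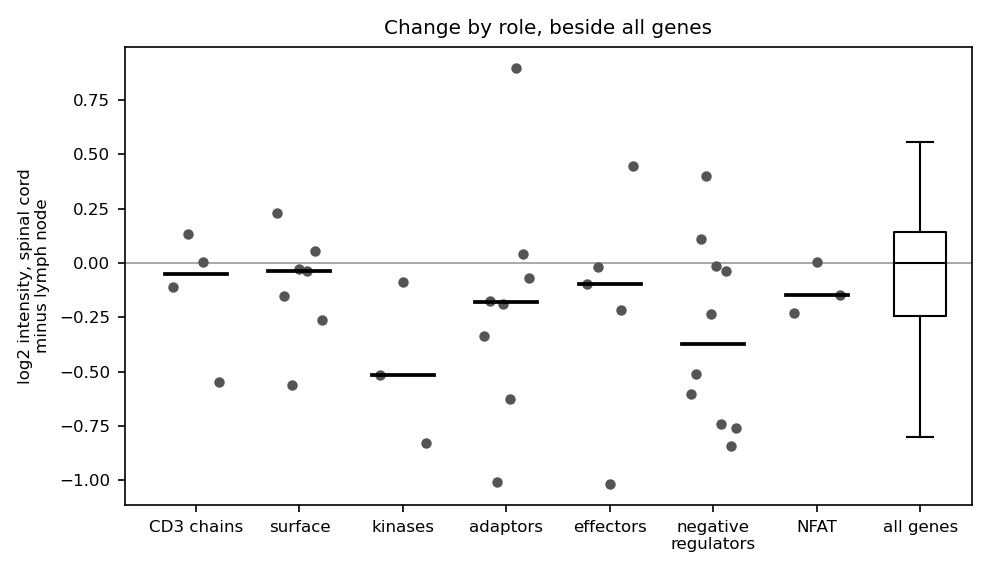
Change in log2 intensity (vertical axis, spinal cord minus lymph node) of each gene, by role, with black bars at the role medians. The box on the right holds the middle 50% of all 18194 genes and its whiskers run from the 5th to the 95th percentile. The medians run from -0.04 for surface genes to -0.52 for the 3 kinases.

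By role, the kinases had a median change of -0.52 (3 genes), the adaptors of -0.18 (8 genes), the effectors of -0.10 (5 genes) and the negative regulators of -0.37 (10 genes). The CD3 and zeta chains stood at -0.05 and the surface genes at -0.04. Whether these medians differ was not tested. The kinase median within the numbered pairs was -0.87, 0.27 and -0.64, so its sign depended on number 2, while that of the negative regulators was -0.07, -0.28 and -0.55. In all, 15 of 40 genes were lower in every pair and 3 higher (Sh2d2a, Cd3e and Thy1), or 37.5% and 7.5%, where 24.7% and 20.2% of all genes were. These shares were not computed for genes as bright as the members. Of genes above the 80th percentile of mean intensity, only 29.8% had positive changes.

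The spread within a tissue was as wide as most differences between tissues. The brightest array exceeded the dimmest by a median of 1.62-fold over the 40 genes in spinal cord and 1.66-fold in lymph node. For 37 of the 40 the range within 1 of the tissues was wider than the fold between tissues. The exceptions can be read from the values of Sos1, Prkcq and Cd247. Array 1 was the brightest for 26 genes in spinal cord and 21 in lymph node, 19 of them shared, among them Lat, Lcp2, Csk, Dgka and Dgkz.

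Promoters are shown, as examples, for 3 of the genes that were lower with the block. They are the 250 bases before the start of each gene, 5′ to 3′ on the gene's strand, from RefSeq on GRCm38.p6. Capitals mark matches to CCGGAA (the ETS core), TGTGGT (Runx), GGAAA (the NFAT core) or TGAGTCA (AP-1), searched on both strands. An ETS match followed by A also holds the NFAT core. Prkcq lies at chr2:11172132-11172381 (plus strand), Trat1 at chr16:48772063-48772312 (minus strand) and Cbl at chr9:44234047-44234296 (minus strand).
Prkcq: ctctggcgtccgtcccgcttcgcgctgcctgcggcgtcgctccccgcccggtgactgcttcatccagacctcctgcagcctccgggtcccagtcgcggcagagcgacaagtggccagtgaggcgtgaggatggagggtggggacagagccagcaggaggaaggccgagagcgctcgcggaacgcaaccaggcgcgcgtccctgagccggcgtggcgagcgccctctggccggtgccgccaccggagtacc
Trat1: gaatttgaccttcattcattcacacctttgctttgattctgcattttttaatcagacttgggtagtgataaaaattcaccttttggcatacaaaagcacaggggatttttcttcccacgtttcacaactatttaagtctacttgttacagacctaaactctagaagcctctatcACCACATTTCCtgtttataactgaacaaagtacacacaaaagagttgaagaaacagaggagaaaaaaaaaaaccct
Cbl: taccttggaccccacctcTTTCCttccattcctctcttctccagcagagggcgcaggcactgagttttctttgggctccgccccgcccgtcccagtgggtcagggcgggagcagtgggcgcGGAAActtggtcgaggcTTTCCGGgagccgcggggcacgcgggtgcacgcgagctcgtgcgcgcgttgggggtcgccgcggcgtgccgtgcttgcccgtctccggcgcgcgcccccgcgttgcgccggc

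The 3 windows differ widely in composition. Prkcq has 72.4% G or C and 30 CpG, Cbl 71.6% and 33, and Trat1 35.2% and 1, against medians of 52.4% and 6 over 32851 windows of the same length. Prkcq holds none of the 4 motifs, Cbl has 3 NFAT core matches and 1 ETS match, and Trat1 has a Runx match beside an NFAT core match. Of the 40 genes 31 matched the table by symbol, with 45 windows. The NFAT core was in 31 of the 45 (68.9%; 55.6% of all windows), the ETS core in 4 (8.89%; 3952 of the 32851), the Runx motif in 4 (8.89%; 14.0%) and AP-1 in 0 (4.46% of all). The 7 genes called lower with the block had 12 windows, 9 of them with the NFAT core. A match describes letters and not a bound site.

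Of the further genes of the pathway, 4 were called with tissue alone. The list held 102 genes, of which 92 were measured, among them kinases of the Tec family, adaptors, Ras and calcium genes and further inhibitors. By limma 1 was higher (Cish) and 3 lower (Pik3ip1, Itpr2 and Tespa1). The blocked fit called 4 higher and 11 lower. Of all genes, 1.13% were higher and 1.41% lower with tissue alone, and 3.67% and 7.44% with the block, so the higher calls in this list are near the share of all genes. The lower calls, 3 and 11 of 92, are a larger share than that of all genes. Of genes above the 80th percentile of mean intensity, 9.59% were lower with the block. Whether the list differs from other genes was not tested. The median change was -0.11, and 35.9% were positive.

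Pik3ip1 encodes an inhibitor of phosphoinositide 3-kinase. It read 1129, 1131 and 919 in spinal cord against 3109, 3014 and 2672 in lymph node, a 2.77-fold difference that was alike in every pair. The log2 change was -1.47 ± 0.14, with an adjusted p of 0.00818 by limma. It was called in 5 of the 6 fits that leave out 1 array, and without lymph node array 2 its adjusted p was 0.0501.

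Cish encodes an SH2 protein induced by cytokines through STAT5 that also restrains receptor signalling. It read 9692, 6547 and 6087 in spinal cord against 1667, 838 and 868 in lymph node, which is 6.83-fold higher (2.77 ± 0.32, adjusted p = 0.0148 by limma). The call held in 2 of the 6 fits, with a change of 2.57 to 3.09 and an adjusted p of up to 0.0763, that without lymph node array 2.

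Itpr2, a receptor for inositol trisphosphate that releases calcium, read 1054, 830 and 927 in spinal cord against 1960, 1874 and 1565 in lymph node (-0.94 ± 0.15, adjusted p = 0.0367 by limma). It was called in 0 of the 6 fits that leave out 1 array, where the adjusted p ran from 0.0612 to 0.150. Tespa1, known from receptor signalling in thymocytes, read 514, 526 and 306 against 1159, 1218 and 1163. Its change was -1.44 ± 0.23 (adjusted p = 0.0370), and the call held in 1 of the 6 fits, with adjusted p of up to 0.156.

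**Figure D5:**
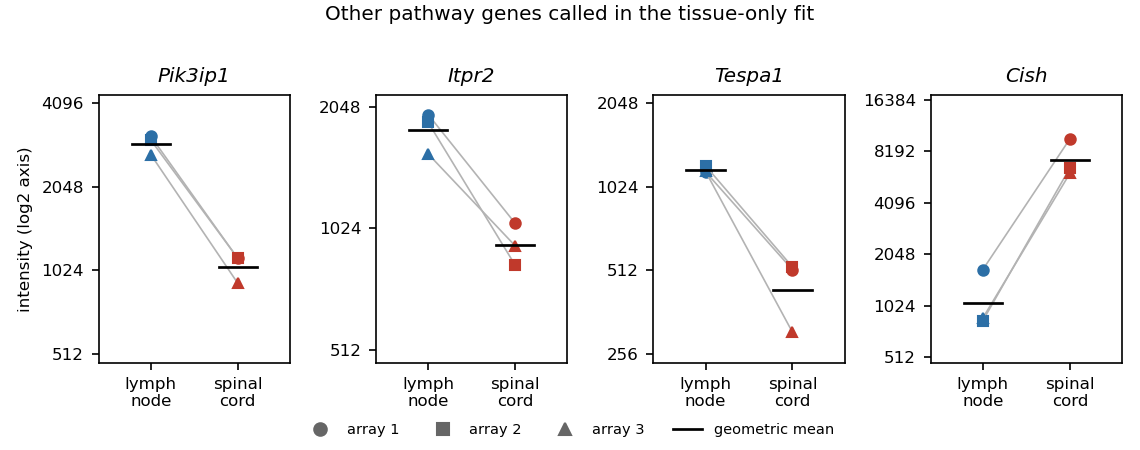
Intensity (vertical axis, log2 spaced) of Pik3ip1, Itpr2, Tespa1 and Cish in each lymph node and spinal cord array. Circles, squares and triangles are arrays 1, 2 and 3, grey lines join arrays of the same number and black bars are geometric means (n = 3). The tissues do not overlap for any of the 4, and Cish alone is higher in spinal cord.

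The next genes by adjusted p were not called with tissue alone on all 6 arrays, and were called with the block. Nedd4 was also called with tissue alone in 1 of the 6 fits that leave out 1 array. Nedd4, a ubiquitin ligase gene, read 216 to 237 in spinal cord against 87 to 143 in lymph node (1.02 ± 0.20, adjusted p = 0.0625; 0.0145 with the block). Rasa1, which switches Ras off, read 940 to 1314 against 1871 to 2419 (-0.86 ± 0.18; 0.0764 and 0.0180). Ptpn11, the gene of the phosphatase SHP-2, read 2779 to 2950 against 4249 to 7775 (-0.96 ± 0.23; 0.115 and 0.0342). Ppp3cc, a catalytic subunit of the calcium-dependent phosphatase calcineurin that activates NFAT, read 972 to 1562 against 547 to 764 (0.91 ± 0.22; 0.121 and 0.0333). Other subunit genes of calcineurin, Ppp3cb at -0.03 ± 0.17 and Ppp3r1 at 0.31 ± 0.37, were not called in either fit.

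The remaining 7 with a blocked call are named after their values were seen. Ppp3ca, another calcineurin subunit gene, was higher, at 0.82 ± 0.27 (adjusted p = 0.236 by limma; 0.0322 with the block). Those lower were Txk, a Tec family kinase, the adaptor genes Sh2b3 and Cd2ap, Ptprcap, whose protein binds CD45, and Dtx1 and Rnf128, ubiquitin ligase genes linked to T cell anergy, with blocked adjusted p from 0.00215 to 0.0419. Dtx1 had the widest difference, at 2607, 1632 and 715 in spinal cord against 11663, 9970 and 2693 in lymph node (-2.23 ± 0.70, adjusted p = 0.217; 0.00215 with the block). Its lowest lymph node array barely exceeded its highest spinal cord array.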

How the data were processed

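Affymetrix arrays were made from biotin-labelled cRNA, with a 3′ amplification of 2 cycles that started, per the labels' protocols, at 1 ng of RNA. Per the submitters' processing notes the intensity values come from RMA (no version was named). In the deposited table they are whole-number intensities, not logarithms, of 45101 probe sets that span 9 to 39505, with array medians of 68 to 71. The number of arrays sets the precision.

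Here log2 was taken and limma 3.58.1 in R 4.3.3 (lmFit, eBayes, two-sided) fitted tissue alone, with Benjamini-Hochberg adjustment over 18194 genes and a call at an adjusted p below 0.05. Errors in the text are SE unless SD is named. An exact permutation test of 3 against 3 arrays cannot go below 0.1 and was not used. Of the probe sets 34958 name 1 gene, 932 several, 9160 none and 64 are controls; names come from the platform annotation, and 34754 matched RefSeq by gene identifier. At least 93.5% of probe sets differed between any pair of arrays. No label says that separate animals stand behind the arrays, so the p-values measure only how these samples vary, which may be technical.

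Same-numbered arrays tended to deviate together from their tissue means (r = 0.576, 0.509 and 0.777, and -0.569 to 0.00503 for other numbers), so the numbers were treated as pairs. Deviations from a tissue mean cancel over its arrays, which pushes r for other numbers negative where that for the same number is positive. The values for other numbers are thus no separate support for this pairing. This pairing rests on the data, since the labels do not say what a number shares.

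The members and lists were chosen with earlier results of these data known. All measured members are named, with other pathway genes that were called (up to 12 by adjusted p) and the next 4. The fit was tested on simulated data. Alternatives were the block, leaving out single arrays, dropping dim genes, centring, quantile normalization, another variance model, an offset, other probe sets and a stricter threshold. Blocked fits with a pair left out, another scaling or other probe sets were added after seeing the data. Figures were drawn with matplotlib 3.10.9.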

Additional observations from a re-analysis of the deposited data

How the results depend on the processing

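With the replicate block the members called were 1 higher and 7 lower in place of 0 and 0, the other pathway genes 4 and 11 in place of 1 and 3, and all genes 668 and 1354 in place of 206 and 257. Blocked fits chosen after seeing the data gave 1 member higher and 8 lower on the mean of all probe sets, 1 and 7 on the probe set with the largest SD, 1 and 6 after quantile normalization and 1 and 10 after median centring. Without both arrays of 1 number they gave 0 and 0. Leaving out single arrays gave 0 to 1 members lower and 0 higher, 0 to 2 other pathway genes higher and 0 to 2 lower, and 49 to 136 genes higher and 32 to 190 lower over all. The member call was Sos1, without lymph node array 1. An adjusted p below 0.01 left 56 genes higher and 47 lower, and 0 and 1 of the other pathway genes. Quantile normalization, a trend with robust variance, the mean of all probe sets and the probe set with the largest SD each gave 2 other pathway genes higher. With tissue alone, 0 of 40 members were called under the filter on dim genes, median centring, quantile normalization, the other variance model, the offset of 16 or other probe sets. The cause of these shifts was not tested. Signs of uncalled members did change, for 8 of 40 under quantile normalization and 2 to 9 without single arrays. The 3 arrays per tissue limit what can be called.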
